A study of Mus musculus with 8 samples.

Results

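Keratins and vimentin build the intermediate filaments of the cytoskeleton, and their transcripts were compared between 2 sorted populations of mouse liver duct cells. The set was chosen by gene symbol and holds 9 genes of the 20377 in the deposited tables: the type II keratins Krt7 and Krt8, the type I keratins Krt18, Krt19, Krt20, Krt23, Krt10 and Krt14, and the type III filament gene Vim. Both populations came from wild-type C57BL/6 mouse liver, from cells other than hepatocytes that bound the duct antibody MIC1-1C3, lacked CD26 and were not blood cells. They were divided by surface ST14 (matriptase, a membrane serine protease of epithelia) into ST14high and ST14low, with 4 RNA sequencing libraries each and no treatment or age stated. Whether the 4 libraries of a population derive from different animals is not in the labels, and p-values therefore reflect library-to-library spread that may be technical.

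Keratin filaments are obligate partners of a type I and a type II chain. Krt8 with Krt18 is the pair of simple epithelia in general, hepatocytes included, and Krt7 and Krt19 are added to it in bile duct cells, where they serve as duct markers. Vimentin forms filaments on its own and is typical of mesenchymal, endothelial and mesothelial cells. Krt14 and Krt10 are keratins of the basal and the upper epidermis, and Krt20 is a keratin of intestinal and urothelial surfaces.

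The libraries held 6398307 to 42769988 counts. ST14high replicate 1 stood apart in several gene groups used below, and pancreatic acinar markers summed to 11629 CPM (counts scaled to a common library size) in it, to 1719 CPM in ST14high replicate 2 and to 5.25 to 131 CPM in the other libraries. For results that move with ST14high replicate 1, values without it are given beside them. All 13 duct markers passed the low-count filter, with a median log2 fold change (ST14high over ST14low) of -0.049, and summed to 15063 to 26852 CPM in ST14high and 21087 to 27869 CPM in ST14low. The 2 most abundant were Spp1 (osteopontin), with means of 15998 CPM in ST14high (18468 without replicate 1) and 18614 in ST14low, and Cdh1 (E-cadherin), with 2045 and 2380 CPM. St14 itself had 305 ± 32.5 CPM in ST14high (mean ± SD over 4 libraries, as for all such values below) against 330 ± 49.0 CPM in ST14low.

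The upstream sequences of 3 genes are shown because the comparisons below turn on them: Krt7 and Krt8, whose proportion to each other was compared, and Vim, whose populations did not overlap; none passed the adjusted threshold. Each is the 250 bases before the transcription start, 5′ to 3′, from RefSeq's GRCm38.p6 (8 of the 9 genes matched; Krt19 did not). The window listed for Krt14 lies inside the gene and is not shown. Capitals mark matches on either strand to the TATA box TATAAA, the GC box GGGCGG, the CCAAT box CCAAT or the AP-1 motif TGANTCA. These occurred in 12.4%, 32.7%, 33.8% and 6.75% of 32851 windows of that length.
Krt7, chr15:101412153-101412402, plus strand: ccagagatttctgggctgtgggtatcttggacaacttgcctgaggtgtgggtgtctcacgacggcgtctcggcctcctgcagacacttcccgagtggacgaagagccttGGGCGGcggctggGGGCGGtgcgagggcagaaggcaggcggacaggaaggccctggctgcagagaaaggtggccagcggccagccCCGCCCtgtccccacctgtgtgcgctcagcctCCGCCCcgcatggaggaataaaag
Krt8, chr15:102004343-102004592, minus strand: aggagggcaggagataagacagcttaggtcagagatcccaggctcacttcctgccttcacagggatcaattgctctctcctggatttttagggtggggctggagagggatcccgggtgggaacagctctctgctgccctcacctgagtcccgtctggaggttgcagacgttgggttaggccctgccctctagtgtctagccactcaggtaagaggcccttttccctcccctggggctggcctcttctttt
Vim, chr2:13574061-13574310, plus strand: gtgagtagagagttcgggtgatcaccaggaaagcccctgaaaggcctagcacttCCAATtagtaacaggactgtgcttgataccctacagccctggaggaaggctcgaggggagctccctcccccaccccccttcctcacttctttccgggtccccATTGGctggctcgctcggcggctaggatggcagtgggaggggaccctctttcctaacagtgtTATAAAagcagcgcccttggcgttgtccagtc
The Krt7 window held 4 GC box matches and none of the other 3 motifs. The Krt8 window held none of the 4 motifs. The Vim window held 1 TATA box match, which ended 26 bases before the start, and 2 CCAAT box matches. A match describes letters and is not a measured binding site.

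Per transcript length, the simple epithelial keratins led in both populations. Krt18 was highest, at a mean of 1329 RPKM (reads scaled by transcript length and library size, as deposited) over the 8 libraries, followed by Krt8 at 726 and Krt19 at 523 RPKM. Krt23, a type I keratin of glandular epithelia, was at 219 RPKM, Krt7 at 153 and Vim at 66.0 RPKM. Krt10, Krt14 and Krt20 were the lowest of the set, at 1.81, 0.945 and 0.514 RPKM. Krt18 exceeded Krt8 in 8 of 8 libraries, and Krt19 exceeded Krt23 in 8 of 8. Krt8 exceeded Krt19, Krt23 exceeded Krt7 and Krt7 exceeded Vim in 7 of 8 libraries each. All 3 exceptions were ST14high replicate 1, where Krt19 stood at 1203 RPKM against 957.7 for Krt8, Krt7 at 213 against 146 for Krt23, and Vim at 246 RPKM. Krt10 and Krt14, and Krt14 and Krt20, kept their order in only 6 of 8 libraries each.

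**Figure D1:**
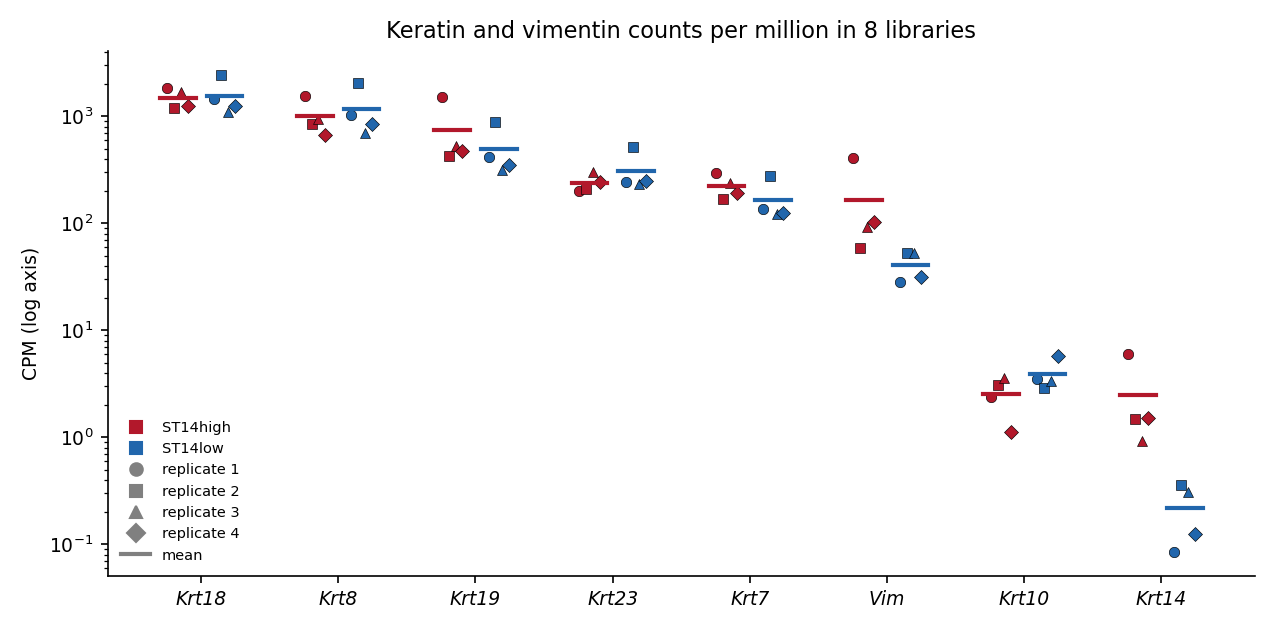
CPM of 8 of the 9 genes on a log axis, with each symbol a library, the shape its replicate number and each line a group mean; Krt20 is left out because it had 0 counts in 2 libraries. Vim and Krt14 are the only genes plotted in which all ST14high libraries lie above all ST14low libraries, and ST14high replicate 1 is highest in both.

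Of the 9 genes, 8 passed the low-count filter and 0 differed between the populations at an adjusted p of 0.05 in edgeR's quasi-likelihood test over 13749 genes, where 0% of all genes did. At an unadjusted p under 0.05 there were 2, Vim and Krt14, both higher in ST14high, against 9.56% of all genes in either direction and 6.89% higher. These were also the 2 genes whose populations did not overlap, against 4.09% of all genes apart with ST14high higher, 2.33% apart with it lower and 6.42% in either direction. DESeq2's Wald test called 1, Krt14, where it called 1.72% of all genes and 1.62% as higher. Krt14 passed the filter through its ST14high libraries alone, so its place in these counts follows in part from the filter, and the shares of all genes are not a measure for it. The median log2 fold change of the 8 was 0.18, with 4 above and 4 below 0, beside 0.0023 over all genes; without ST14high replicate 1, when Krt20 also passed the filter, the median was -0.18 beside -0.015.

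Krt18 (chr15:101858646-101862457 in the files' build, mm9) and Krt8 (chr15:101827141-101834773), the general pair of simple epithelia, overlapped between the populations. Krt18 was at 1835, 1204, 1685 and 1254 CPM in ST14high replicates 1 to 4 and at 1460, 2458, 1097 and 1250 CPM in ST14low replicates 1 to 4. Krt8 was at 1551, 851, 939.8 and 674 CPM in ST14high and at 1036, 2057, 703 and 847 CPM in ST14low. For both genes the highest library was ST14low replicate 2 and the next was ST14high replicate 1, so the ranges overlapped widely. The log2 fold change was -0.068 (SE 0.27, 95% interval -0.66 to 0.53, adjusted p = 0.951 in edgeR) for Krt18 and -0.21 (SE 0.36, interval -1.02 to 0.60, adjusted p = 0.867) for Krt8. Without ST14low replicate 2 both estimates changed sign, to 0.22 and 0.20. Without ST14high replicate 1 they were -0.18 for Krt18 and -0.50 for Krt8.

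Krt19 (chr11:100002125-100007233), the most widely used duct keratin and the smallest of the family, and Krt7 (chr15:101242833-101258237), its usual companion in ducts, had higher means in ST14high but overlapping ranges. Krt19 was at 1522, 426, 534 and 478 CPM in ST14high and at 415, 891, 313 and 354 CPM in ST14low. Krt7 was at 294, 168, 238 and 191 CPM in ST14high and at 137, 277, 122 and 125 CPM in ST14low. ST14low replicate 2 again lay above the rest of its group in both genes, inside the ST14high range. The log2 fold change of Krt19 was 0.59 (SE 0.47, adjusted p = 0.696 in edgeR), and it was -0.042 without ST14high replicate 1. That of Krt7 was 0.43 (SE 0.29, adjusted p = 0.649 in edgeR), 0.27 without ST14high replicate 1 and 0.78 without ST14low replicate 2.

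Krt7 and Krt19 put the 8 libraries in exactly the same order. Over 28 pairs among the 8 filtered genes, computed on log2 CPM, the Krt7 and Krt19 pair had a Pearson r of 0.902 (exact permutation p = 2.48e-05, adjusted 0.00069) and a Spearman rho of 1 (exact permutation p = 4.96e-05, adjusted 0.0014), both raw values the smallest these permutations could give. Without the 2 libraries farthest from the median of Krt7, ST14high replicate 1 and ST14low replicate 2, r was 0.943. The populations did not overlap in either gene over the libraries left, so this r also holds that separation. Krt8 and Krt18 had an r of 0.935 (exact permutation p = 0.00097, adjusted 0.0090) and a rho of 0.810 (exact permutation p = 0.022, adjusted 0.12), and r was 0.716 without the same 2 libraries. A population of 4 libraries is too small for a value of its own. The Vim and Krt14 pair is given no tested correlation because its populations form separate clusters.

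Krt23 (chr11:99339286-99354424) was the other abundant type I keratin. It was at 200, 210, 302 and 245 CPM in ST14high and at 242, 516, 236 and 247 CPM in ST14low. ST14low replicate 2 lay well above the other libraries of its group, while ST14high replicate 1, which was high in Krt18, Krt19 and Krt7, was the lowest of all 8. The log2 fold change was -0.37 (SE 0.27, adjusted p = 0.673 in edgeR), and -0.028 without ST14low replicate 2.

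The proportions of the keratins to one another, which do not depend on library size, were compared per length. Krt7 made up 18.2%, 18.8%, 22.9% and 25.0% of type II RPKM (Krt7 plus Krt8) in ST14high and 13.5%, 13.6%, 16.9% and 14.8% in ST14low. All 4 ST14high libraries lay above all 4 ST14low libraries, with means of 21.2% ± 3.25 and 14.7% ± 1.59 (SD, n = 4). The difference of 6.53 percentage points had an exact two-sided permutation p of 0.0286, the smallest that 4 against 4 libraries allow, and it did not pass after adjustment over the 3 proportions compared (adjusted p = 0.0857). It remained between 5.28 and 7.53 points when any 1 library was left out.

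Krt19 made up 42.7%, 23.2%, 21.3% and 24.3% of type I RPKM in ST14high and 19.6%, 23.2%, 19.1% and 19.2% in ST14low. Only ST14high replicate 1 lay far from the rest, and ST14low replicate 2 fell within the range of the other ST14high libraries. The difference was 7.58 points (exact permutation p = 0.0571, adjusted 0.0857) and 2.64 points without ST14high replicate 1. The ratio of type II to type I RPKM was 0.416, 0.446, 0.379 and 0.356 in ST14high and 0.443, 0.484, 0.404 and 0.421 in ST14low, with overlapping ranges (exact permutation p = 0.229). As a further proportion, chosen after its values were seen and not tested, Krt8 and Krt18 together took 60.7% to 70.7% of the summed RPKM of the 8 keratins in ST14high and 71.6% to 74.8% in ST14low, without overlap. That sum was 2368 to 3989 RPKM in ST14high and 2021 to 4867 RPKM in ST14low.

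**Figure D2:**
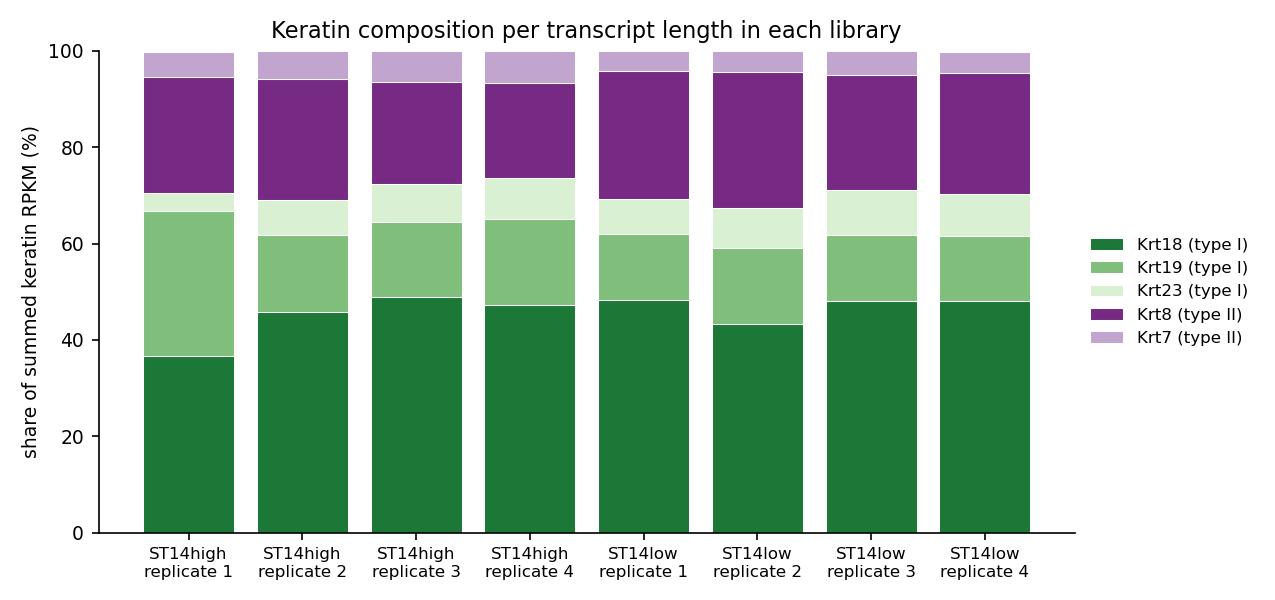
Share of each keratin in the summed RPKM of the 8 keratins, in percent, with 1 bar per library; Krt20, Krt10 and Krt14 are too low to draw. Krt18 is the largest share in every bar, and Krt19 is widest in ST14high replicate 1.

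**Figure D3:**
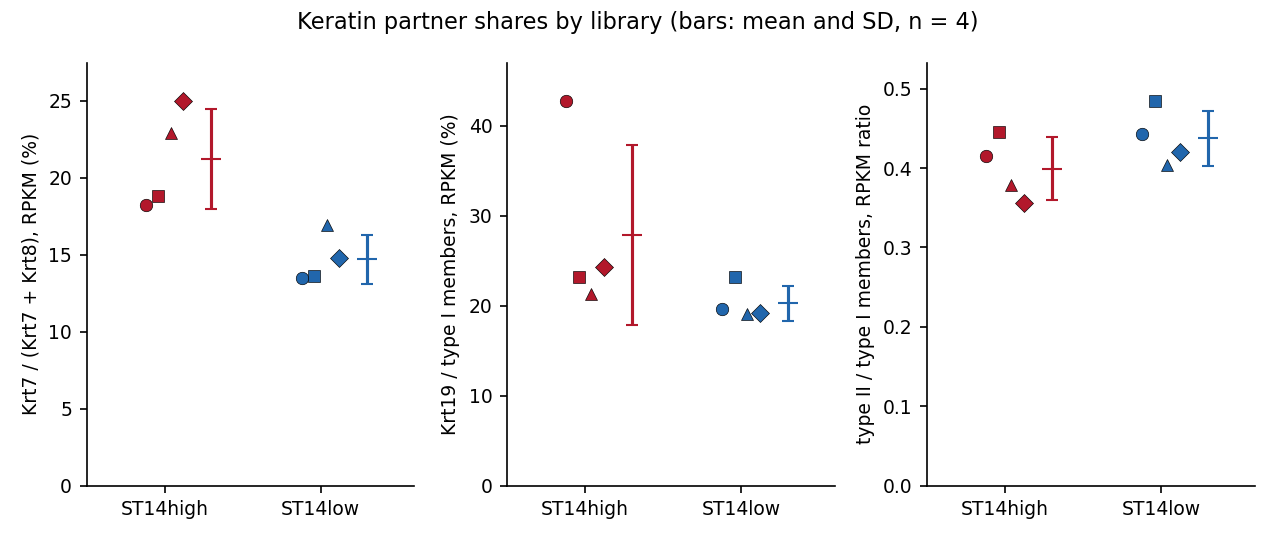
Krt7 as a percentage of type II RPKM, Krt19 as a percentage of type I RPKM and the ratio of type II to type I RPKM, by population; each symbol is a library, its shape the replicate number (circle 1, square 2, triangle 3, diamond 4), and the bars give the mean and SD. The populations are apart in the first panel only, at 18.2% to 25.0% against 13.5% to 16.9%.

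Vim (chr2:13495937-13504453) had a higher mean in ST14high. It was at 406, 59.1, 92.5 and 104 CPM in ST14high and at 28.0, 52.4, 52.6 and 31.3 CPM in ST14low. Every ST14high library exceeded every ST14low library, although the gap between ST14high replicate 2 and ST14low replicate 3 was small and ST14high replicate 1 was far above all others. The log2 fold change was 2.01 (SE 0.57, interval 0.75 to 3.28, unadjusted p = 0.0053, adjusted p = 0.294 in edgeR), and it was 1.06 (adjusted p = 0.228) without ST14high replicate 1. DESeq2 did not call Vim over all libraries (adjusted p = 0.095) and did so without ST14high replicate 1 (adjusted p = 0.021) or ST14high replicate 2 (adjusted p = 0.00038). Relative to the summed keratin RPKM, Vim stood at 6.17%, 1.71%, 2.04% and 2.98% in ST14high and at 0.705%, 0.703%, 1.75% and 0.914% in ST14low, where ST14low replicate 3 fell just above ST14high replicate 2.

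Krt14 (chr11:100064475-100068824) had the largest estimated difference of the set, on few reads. Its counts were 95, 37, 39 and 51 in ST14high and 2, 7, 2 and 4 in ST14low, or 6.00, 1.47, 0.921 and 1.51 CPM against 0.0852, 0.359, 0.309 and 0.125 CPM. The populations did not overlap, and only the ST14high libraries were high enough for Krt14 to pass the filter. Pooled over libraries, 222 counts in ST14high against 15 in ST14low gave a ratio of 10.3 after scaling by library size, with a 95% interval of 6.11 to 18.7 that covers counting error only. The fitted log2 fold change was 3.55 (SE 0.86, unadjusted p = 0.0021, adjusted p = 0.246 in edgeR) and 2.64 without ST14high replicate 1. DESeq2's adjusted p of 0.0084 missed the threshold when ST14high replicate 1 was left out (0.12), and likewise for ST14low replicate 1 (0.078) or replicate 4 (0.081).

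The populations overlapped in 4 other keratins of stratified epithelia, of which Krt5, Krt15 and Krt16 are named after their values were seen. Krt5, its usual type II partner, had 10 counts in all 8 libraries together, and Krt16 had 14. Krt17, the most abundant keratin outside the set, ranged from 7.25 to 29.7 CPM in ST14high and from 13.2 to 49.6 CPM in ST14low (log2 fold change -0.68, adjusted p = 0.689 in edgeR). Krt15 was at 1.89 ± 0.825 and 0.725 ± 0.576 CPM. Some keratins below the filter, also named after their values were seen, leaned either way, with overlap in each. Krt76 had 76 counts in ST14high and 1 in ST14low, Krt13 had 28 and 5, and Krt4 had 17 and 6. Krt77 had 1 and 5, and Krt6a had 0 and 3. Type I keratins have similar sequences, and how the authors' counting assigned reads that match several of them is not known here.

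The remaining keratins of the set were scarce. Krt10 (chr11:99246568-99250678) was at 2.40, 3.10, 3.61 and 1.13 CPM in ST14high and at 3.54, 2.92, 3.39 and 5.82 CPM in ST14low. The ranges overlapped, with an estimate of -0.62 on the log2 scale (SE 0.46, adjusted p = 0.683 in edgeR). Krt20 (chr11:99289716-99299467) did not pass the filter. Its counts were 72, 8, 23 and 0 in ST14high and 29, 1, 0 and 13 in ST14low, so both populations held a library with no read beside libraries with many. The 0 counts allow up to 0.089 CPM in ST14high replicate 4 and up to 0.463 CPM in ST14low replicate 3, the shallowest library, as 3 counts of its total.

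Outside the set, the files list 43 other keratin genes, of which 19 had no read and 37 stayed under 1 CPM in every library. Of the 17 listed epidermal and stratified keratins 3 were tested, 2 above and 1 below 0, and of the 25 hair keratins 1 was, with 0 called in edgeR in either list (0 also by DESeq2 and at an unadjusted p under 0.05). Without ST14high replicate 1, 1 of the 3 epidermal keratins was lower at an unadjusted p under 0.05. Of all 13867 genes tested in that fit, 506 were lower and 839 higher. Krt80, a type II keratin, had 12.7 ± 10.5 CPM in ST14high against 9.22 ± 1.37 CPM in ST14low. Its higher ST14high mean came from replicate 1, since the other 3 libraries, at 6.68 to 8.23 CPM, lay below every ST14low library (8.40 to 11.3 CPM). Krt83 was at 0.990 ± 1.06 and 0.383 ± 0.270 CPM, and at 0.499 ± 0.479 CPM in ST14high without replicate 1.

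Of 14 other intermediate filament genes, 10 were tested and 0 passed over all genes in edgeR. Their median log2 fold change was 1.17, with 9 above 0, beside 0.0023 for all genes, and it was 0.044 without ST14high replicate 1. At an unadjusted p under 0.05 there were 3, all higher in ST14high, beside 6.89% of all genes. DESeq2 called the same 3, beside 1.62% of all genes as higher. The 3 are named after their values were seen. Des (desmin, the filament of muscle and stellate cells) was at 57.8, 9.91, 3.75 and 19.3 CPM in ST14high and at 2.86, 1.54, 0.926 and 1.34 CPM in ST14low. Prph (peripherin, a neuronal filament) was at 7.15 ± 6.14 and 0.903 ± 0.534 CPM, and Synm (synemin, which joins desmin and vimentin filaments) at 10.7 ± 8.66 and 2.61 ± 1.15 CPM. Of the type III filament genes in this list, Des and Prph did not overlap between the populations and Gfap did, at 0 to 1.45 CPM in ST14high and 0.063 to 0.617 CPM in ST14low. Without ST14high replicate 1 the ST14high means of Prph and Synm were 4.17 and 6.53 CPM. The nuclear lamins, the 2 most abundant of the list, overlapped: Lmna was at 215 ± 122 and 167 ± 37.9 CPM and Lmnb1 at 44.8 ± 5.39 and 44.2 ± 4.27 CPM (log2 fold changes 0.37 and 0.016). Without ST14high replicate 1 Lmna had 154 ± 17.9 CPM in ST14high, below the ST14low mean.

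**Figure D4:**
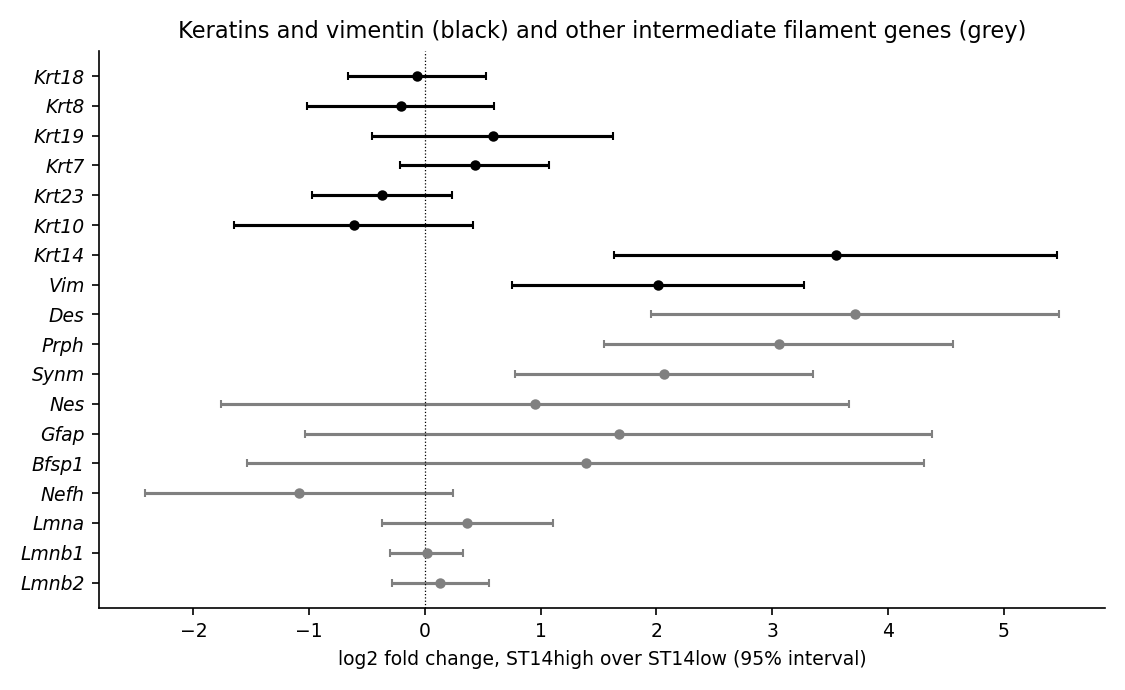
Log2 fold change of ST14high over ST14low with its 95% interval from edgeR, for the 8 filtered genes of the set in black and 10 other intermediate filament genes in grey. Krt14, Vim, Des, Prph and Synm have intervals above 0 before adjustment for the number of genes, and 0 genes pass after it.

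Of 17 genes that anchor filaments to desmosomes and other sites, 16 were tested, with a median log2 fold change of 0.10 (0.040 without ST14high replicate 1) and 0 called in edgeR or DESeq2; 1, Ppl (periplakin), had an unadjusted p under 0.05. Dsg2 (desmoglein 2) had 2660 ± 647 CPM in ST14high (2885 ± 569 without replicate 1) against 2754 ± 413 CPM in ST14low, and Dsp (desmoplakin, which ties keratin to the desmosome) had 1139 ± 68.4 and 1166 ± 192 CPM. Of 17 keratin regulators and binding proteins 16 were tested, with a median of 0.0080 and 0 called in edgeR, or in DESeq2 among the 15 to which it gave an adjusted p; Sfn, Klf4 and Klf5 had an unadjusted p under 0.05, and 0 did without ST14high replicate 1. Ywhae, a 14-3-3 protein, was at 542 ± 57.5 and 537 ± 84.8 CPM. Over all genes, 9.56% had an unadjusted p under 0.05 in edgeR.

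Most markers of mesothelium and of stellate cells and fibroblasts had, like Vim and Krt14, higher estimates in ST14high. In bulk libraries, more cells of a type and more RNA per cell cannot be told apart. Of the 9 mesothelium markers listed, 8 were in the files and none of these was at 0 in a group. All 8 had a log2 fold change above 0, with a median of 3.36 (2.35 without ST14high replicate 1), 7 had an unadjusted p under 0.05 but 0 passed over all genes in edgeR, 7 did not overlap and DESeq2 called 7. Their sum was 1099, 316, 370 and 423 CPM in ST14high and 204, 162, 273 and 213 CPM in ST14low. The most abundant, Gpm6a, overlapped between the populations at 202 ± 33.7 and 178 ± 34.4 CPM, while Upk3b was at 121 ± 121 and 12.4 ± 6.88 CPM, and at 60.3 ± 11.7 CPM in ST14high without replicate 1. Gpm6a made up most of the sum in ST14low. Without it the sum was 856, 137, 199 and 207 CPM in ST14high and 31.7, 28.9, 58.6 and 21.2 CPM in ST14low. Of 14 stellate cell and fibroblast markers, Des among them, 12 lay above 0, with a median of 1.96 (0.84 without ST14high replicate 1), 9 had an unadjusted p under 0.05 but 0 passed in edgeR, 4 did not overlap and DESeq2 called 3 of the 12 to which it gave an adjusted p. Their sum was 2781, 745, 709 and 883 CPM in ST14high and 513, 314, 633 and 651 CPM in ST14low. Of the 2 most abundant, Rgs5, a pericyte gene, had 181 ± 55.6 CPM in ST14high against 252 ± 86.7 CPM in ST14low, and the collagen gene Col3a1 had 285 ± 342 (115 ± 15.5 without replicate 1) against 44.5 ± 22.5 CPM. Over all genes, 6.89% were higher at an unadjusted p under 0.05 in edgeR and 4.09% were apart with ST14high higher. DESeq2 called 1.62% of all genes as higher. The part of mesothelial, stellate and fibroblast cells in the Vim and Krt14 values was not tested.

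Other marker lists differed in direction. All 10 endothelial markers lay below 0, with a median of -0.43 (-1.74 without ST14high replicate 1) and sums of 21.4 to 1086 CPM in ST14high and 275 to 1168 CPM in ST14low. Of 10 tested macrophage and leukocyte markers 8 lay below 0, with a median of -1.30 (-1.97 without ST14high replicate 1) and sums of 242 to 328 CPM against 331 to 813 CPM. Csf1r made up most of that sum in ST14high replicates 2 to 4. It was at 161 to 236 CPM in ST14high and 199 to 312 CPM in ST14low, and a sum without Csf1r was not computed. The 10 hepatocyte markers had a median of -0.46 (-0.32 without ST14high replicate 1) and sums of 4917 to 12399 and 7816 to 14369 CPM. Of 9 tested genes of the epithelial to mesenchymal transition 7 lay above 0, with a median of 0.24 (0.033 without ST14high replicate 1). Among the 7 were the epithelial splicing regulators Esrp1 (0.14) and Esrp2 (0.24), the latter named after its value was seen. The count and median of this list therefore give no direction of the transition. The most abundant pairs in these lists overlapped between the populations: Ptprb and Eng of endothelium, Csf1r and Clec4f of macrophages, Alb and Ahsg of hepatocytes, and Fn1 and Esrp1 of the transition list, with log2 fold changes of -0.35, -0.13, -0.24, -2.32, -0.12, -0.42, -0.23 and 0.14. Without ST14high replicate 1 the ST14high means of Ptprb, Eng and Clec4f were 53.5, 29.6 and 12.0 CPM against 175, 83.3 and 102 CPM in ST14low, Clec4f no longer overlapped, and the Alb mean, at 8765 CPM, lay above that of ST14low, at 8240 CPM. In edgeR 0 genes of these lists passed, and DESeq2 called 0. At an unadjusted p under 0.05 there were 0 endothelial, 1 macrophage, 1 hepatocyte and 0 transition genes. Without ST14high replicate 1 the counts were 3, 3, 0 and 0, and all of these genes were lower in ST14high. Over all genes, 368 of 13749 were lower and 947 higher at that threshold. Without ST14high replicate 1, 506 of 13867 were lower and 839 higher. Of the pancreatic acinar markers 5 of 14 were tested, all above 0, with 5 at an unadjusted p under 0.05, 0 passing in edgeR and 2 called by DESeq2; the most abundant, Ctrb1 and Cela2a, stood at 1896 and 1559 CPM in ST14high replicate 1, at 242 and 232 CPM in replicate 2 and at 0 to 2.49 CPM in replicates 3 and 4, against ST14low means of 4.36 and 5.23 CPM. The median log2 fold change of the 5 was 6.40, and 3.85 with 3 at an unadjusted p under 0.05 without ST14high replicate 1. DESeq2 called 1.62% of all genes as higher.

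**Figure D5:**
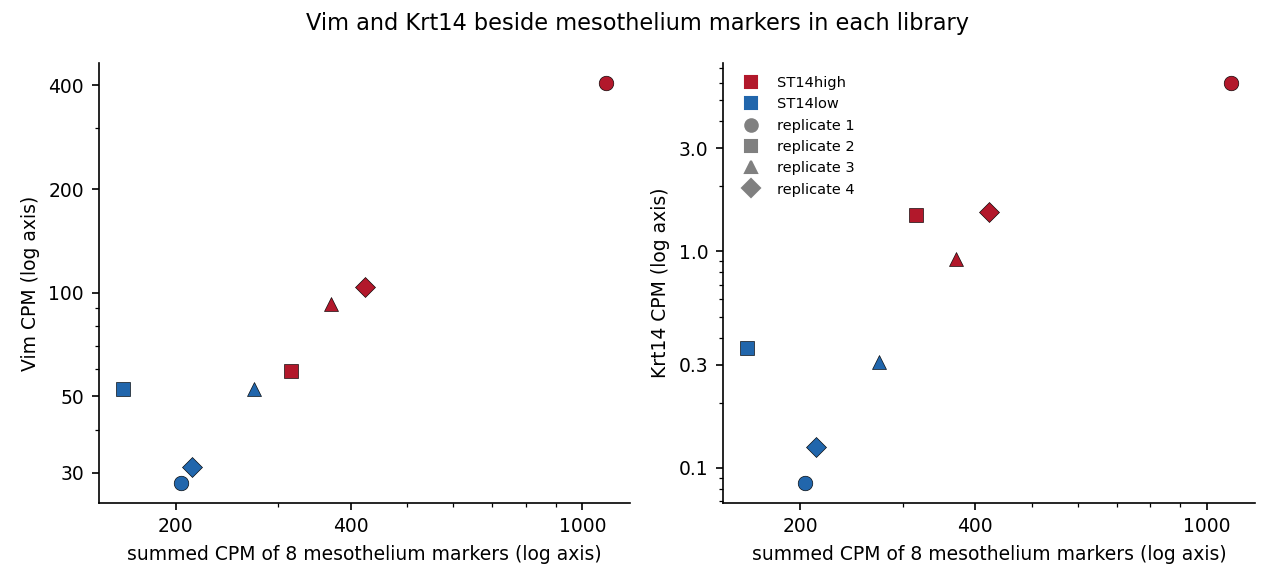
CPM of Vim and of Krt14 against the summed CPM of 8 mesothelium markers, log axes, each symbol a library with its shape the replicate number. ST14high libraries lie at 316 to 1099 CPM of markers and ST14low libraries at 162 to 273 CPM, with ST14high replicate 1 highest on every axis. The sum includes Gpm6a, which overlapped between the populations and was at 133 to 214 CPM in ST14low.

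The genes outside the set whose log2 CPM most resembled each gene over the 8 libraries are given by Pearson's r, as a description, from 10252 genes with a mean of at least 10 CPM. For Vim and Krt14, whose populations did not overlap, r also holds that separation. The nearest to Vim were Bcar3 (0.998), Thbd (0.984) and Rarres2 (0.977), and to Krt14 AU021092 (0.981), the mesothelium marker Upk1b (0.975) and Flrt2 (0.971). For Krt7 they were Sh3glb2 (0.993), Haus7 (0.976) and Aldoa (0.972), and for Krt19 Neu1 (0.981) and Pak4 (0.979). Those of Krt8 were Calm3 (0.991), Eef2 (0.981) and Gjb1 (0.979), and those of Krt18 Gnai2 (0.984), Nek6 (0.982) and Slc9a3r1 (0.982). Camk1 (0.996), Gm16517 (0.986) and 2900073G15Rik (0.973) were nearest to Krt23, and Erich1 (0.972), Alg6 (0.954) and Zfp184 (0.953) to Krt10. The lists of the 8 genes had no gene in common.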

How the data were processed

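RNA sequencing of 8 libraries was analysed, 4 of ST14high and 4 of ST14low cells, grouped and numbered by their labels. The submitters' processing notes list Bowtie 1.0.0, CASAVA 1.8.2 and the build mm9 without saying what each was used for. The counter, the annotation release and any use of strand were not given in the sources used here. The authors deposited raw read counts per RefSeq transcript, and beside them RPKM values scaled by transcript length and library size. For each symbol the transcript with the most reads was kept, and each of the 9 genes had 1. Differences were tested with edgeR 4.0.16 (quasi-likelihood, TMM factors, filterByExpr, R 4.3.3), two-sided, with Benjamini-Hochberg adjustment over all genes and a threshold of 0.05; CPM use TMM-scaled library sizes. Proportions were computed from RPKM and tested by exact permutation over 70 arrangements. DESeq2 1.42.0 and limma 3.58.1 were alternatives. The fit was tested on simulated data in which no library stood apart, unlike ST14high replicate 1 here.

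The genes, lists and tests were chosen with earlier results of these data known. Named genes were the 9, the genes of each list past the adjusted threshold or, where fewer than 2 passed, its 2 most abundant, and for each of the 8 filtered genes the 3 others most correlated with it; others are said to be chosen after their values were seen. Other settings were other size factors, other filters, both other tools, the longest transcript, a block for the replicate number, and the omission of libraries. Chosen after seeing the data were unadjusted counts, DESeq2 without each library and list counts and gene means without ST14high replicate 1. Intervals on counts cover counting error only. Of the genes this rule names, 2 are not reported here.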

Additional observations from a re-analysis of the deposited data

Results flagged for a closer look

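Within a group of 4 libraries, a library was picked out when its gap to the nearest other, as a part of the group's range, exceeded Dixon's 95% critical value, which chance gives in about 1 in 20 groups; 38 groups were screened and 11 were picked out, all through ST14high replicate 1 or ST14low replicate 2. ST14high replicate 1 was above the rest of its group in Krt19 (1522 CPM, the others 426 to 534), Krt20 (4.55 CPM, the others 0 to 0.543), Krt14 (6.00 CPM, the others 0.921 to 1.51) and Vim (406 CPM, the others 59.1 to 104). In the same library Krt19 made up 42.7% of type I RPKM, Krt23 only 5.17% where the others had 10.5% to 11.5%, and the Krt19 to Krt18 ratio was 0.823 where the others had 0.315 to 0.379. ST14low replicate 2 was above the rest of its group in Krt7 (277 CPM, the others 122 to 137) and Krt23 (516 CPM, the others 236 to 247). Its Krt19 share of type I RPKM was 23.2%, the others 19.1% to 19.6%, and its Krt19 to Krt18 ratio was 0.360, the others 0.281 to 0.283. Several of these measures share genes, so the 11 are not independent. Pancreatic acinar, mesothelium, stellate cell and endothelial marker sums were also high in ST14high replicate 1 (11629, 1099, 2781 and 1086 CPM); their part in these values was not tested.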

How the results depend on the processing

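Over the planned settings, Krt7, Krt14 and Vim stayed above 0 (0.27 to 0.78, 2.53 to 3.97 and 1.06 to 2.29 on the log2 scale) and Krt23 and Krt10 below 0 (-0.52 to -0.028 and -0.85 to -0.36). Krt8 turned from -0.21 to 0.040 with limma's voom and to 0.20 without ST14low replicate 2, and was -0.53 without ST14high replicates 1 and 2. Krt18 turned from -0.068 to 0.068 with limma's voom, 0.021 without ST14high replicate 2, 0.0052 without ST14high replicate 4 and 0.22 without ST14low replicate 2. Krt19 turned to -0.042 without ST14high replicate 1 and was 1.01 without ST14low replicate 2. Krt20, tested only where it passed or where no filter was set, was 1.55 with no filter and 2.83 without ST14low replicate 1, and turned to -0.65 without ST14high replicate 1 and to -0.72 without ST14high replicates 1 and 2. The causes were not tested. DESeq2 called 1 of the set and 234 genes in all, and 2 of the set had an unadjusted p under 0.05 in edgeR. With 1 library left out the Krt7 share differed by 5.28 to 7.53 points, but 4 against 3 libraries cannot give a p under 0.0571, so those p-values say nothing about its stability. With the replicate number as a block 2 genes passed in edgeR and 0 of the set. Same-numbered libraries had correlations of deviations from -0.12 to 0.052, and no ST14high library correlated best with its own number. Of the ST14low libraries, only replicate 2 did. These correlations cannot decide whether the libraries are paired by number, and the labels state no pairing. Depth limits Krt14 in ST14low (15 counts) and Krt20.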
